A study of Caenorhabditis elegans with 205 samples.

Results

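The srz genes of Caenorhabditis elegans form one of the nematode's large chemoreceptor families. Members were taken as every row of the deposited count table whose gene identifier maps to a WormBase symbol made of srz- and a number, which gave 63 of the 46927 genes in the table. RNA had been sequenced from sorted neurons of 53 classes with 2 to 6 libraries each, and 17 of the classes are ciliated sensory neurons. The question addressed here is in which classes each receptor gene was read, and at what level.

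Chemoreceptors of the srz family are predicted serpentine proteins that couple to G proteins, and in nematodes the family is known for rapid sequence change and for gene copies that sit next to each other. Worm chemosensory neurons carry such receptors in the membrane of their cilia, each neuron class making many different receptors at once, and G protein alpha subunits pass the signal on to TRPV channels or to cyclic nucleotide-gated channels. ADL, named often below, is a pair of amphid neurons in the head whose cilia are exposed to the environment and which is known for avoidance of repellents and for responses to pheromones.

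Where the labels give a treatment it is untreated, and some libraries carry no such label. Every library came from worms grown on 8P plates with E. coli NA22 as food, whose neurons were sorted by fluorescence into Trizol and turned into libraries with the Tecan SoLo Ovation kit. The strain, the fluorescent marker and the promoter behind each sort are not given in the sources used here, and other amphid classes such as ASH and ASJ were not analysed here. The labels do not say which libraries came from separate cultures, so p-values measure the spread between libraries, which may in part be technical. ADL has 4 libraries, labelled ADLr171, ADLr172, ADLr173 and ADLr174, and their values are given below in that order. Library totals ran from 798303 to 24647021 counts with a median of 4692492, and in ADL from 3690186 to 7506532. Levels are given as CPM, counts scaled to a fixed library total, after TMM scaling, a scaling that lines up the bulk of the genes between libraries. A gene with no count could still have lain at up to 3 counts, which is 0.643 CPM in the median library, 6.37 CPM in the shallowest and 0.278 to 0.676 CPM in ADL, counting error only.

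All 63 members are annotated as protein-coding. Their coordinates in the table match the WBcel235 annotation for 63 of 63 genes, and coordinates below are given on that assembly. They encode proteins of up to 382 residues, with a median of 324, from 3 to 13 exons, with a median of 5. Chromosome IV carries 27 members, chromosome V 26, chromosome II 5, chromosome I 3 and chromosome III 2. With a gap of up to 20 kb allowed between neighbours, 40 members fall into 13 groups and 23 stand alone.

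The srz family was read above all in ADL. The summed level of the 63 genes was 3070, 4338, 564 and 879 CPM in the 4 ADL libraries, a mean of 2213 ± 1803 CPM (SD, n = 4). The highest sum in any library of another class was 46.1 CPM, in an ASK library, so the lowest ADL library lay above every other library. ADL held 82.1% of the summed class means, and 47940 of the 58455 counts that the family received in the whole series. Next in order were the interneuron AIY with 29.8 ± 11.1 CPM (SD, n = 3), the amphid neuron ASK with 24.8 ± 18.3 CPM (SD, n = 4), the phasmid neuron PHA with 24.6 ± 7.65 CPM (SD, n = 4) and the thermosensory neuron AFD with 20.9 ± 6.78 CPM (SD, n = 5). The libraries of these classes overlapped, so their order does not hold beyond the spread. The lowest class was the motor neuron DVB with 2.39 CPM.

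**Figure D1:**
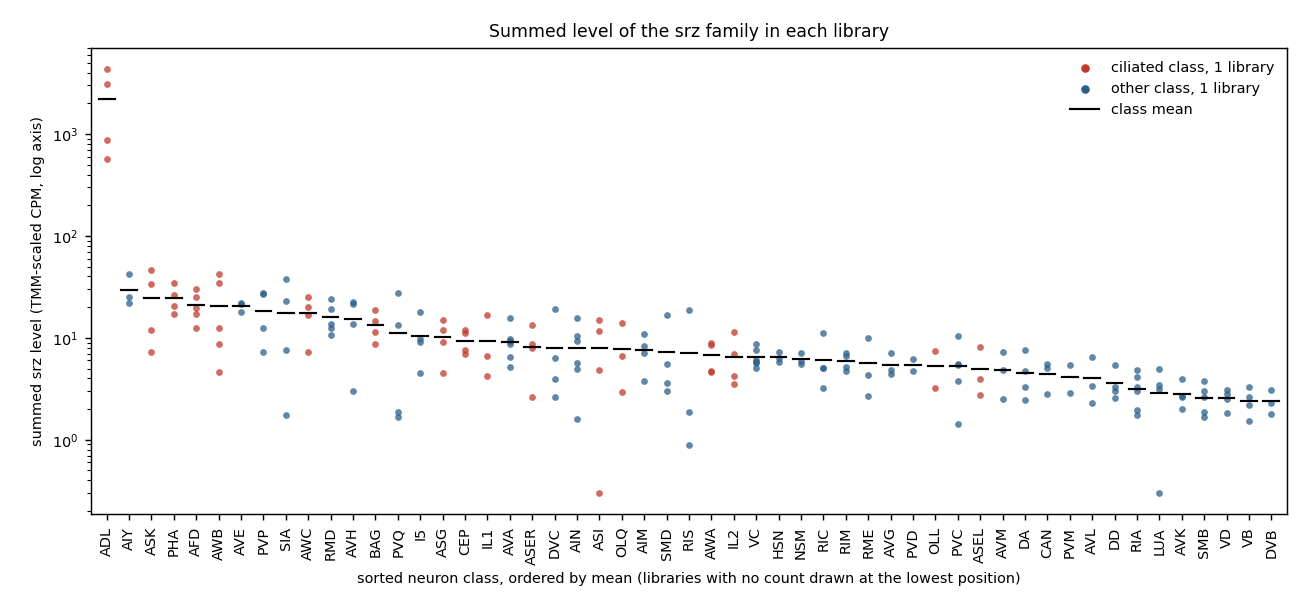
Summed TMM-scaled CPM of the 63 srz genes (vertical, log axis) in each library (points), by class, with class means as lines and ciliated classes in red. The 4 ADL libraries sit between 564 and 4338 CPM, and all other libraries at or below 46.1 CPM.

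The 4 ADL libraries fell into a high and a low pair. Genes that mark neurons in general, 6 in number, summed to 10383, 11880, 1755 and 2929 CPM in the 4 ADL libraries. The ADL markers sre-1 and srh-220, both chemoreceptor genes and both at their highest in ADL, summed to 261, 306, 45.1 and 74.5 CPM, while 4 body muscle genes summed to 383, 212.3, 2034 and 1895 CPM. ADLr173 and ADLr174 were thus low in receptor, ADL and neuronal genes together and high in muscle genes. In bulk samples, fewer cells of a type and less RNA per cell cannot be told apart. Taken against the neuronal markers of the same library, the family was even: 29.6, 36.5, 32.1 and 30 srz counts for every 100 counts of the neuronal markers. The srz genes made up 13.5%, 14.8%, 12.3% and 11.9% of the counts of 1293 listed chemoreceptor genes in these libraries. Of the 55 members counted in all 4 ADL libraries, 49 were lowest in ADLr173 and 45 were highest in ADLr172.

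Of the 63 members, 56 were called higher in ADL than in the mean of the other 52 classes (edgeR quasi-likelihood test, Benjamini-Hochberg adjusted p under 0.05 over all 20427 genes tested), against a background of 19.2% of the genes tested. None was called lower, where 3.27% of genes were, and none had an unadjusted p under 0.05 in that direction. Set against all other libraries as one group, 55 members were called, with a background of 7.30%, and srz-6 was the one not called (edgeR adjusted p = 0.137). In limma-voom 56 were called, beside 13.4% of genes. The 7 members that were not tested had too few counts. Since a member could pass the count filter through the ADL libraries alone, no count of ADL calls over the tested members alone is given. For 41 of the 63 members every ADL library lay above every library of every other class, where 2.09% of tested genes did so. The log2 fold changes of the called members ran from 5.01 to 11.19 and their adjusted p-values from 6.91e-70 to 9.71e-15 (edgeR). These fold changes depend on the small prior count that edgeR adds, because each of the 63 members had no count in at least 2 classes. The F-test over all 53 classes called 56 members too, beside 95.5% of genes tested.

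Levels in ADL ranged over the family from no count to 174.8 CPM, with a median of 18.3 CPM over the 63 members, beside a median of 3.54 CPM over all 19979 protein-coding genes in ADL. There were 5 members at 100 CPM or more, 40 between 10 and 100 CPM, 12 between 1 and 10 CPM and 6 below 1 CPM. As a mean of the shares in the 4 ADL libraries, the 5 highest took 29.8% of the family's counts, the 10 highest 48% and the 20 highest 74.1%. The rank of the members was much the same in every ADL library, with Spearman correlations between libraries of 0.927 to 0.973 over 63 genes, given as a description of genes that share their libraries. The libraries thus differed mainly in the common height of the family.

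**Figure D2:**
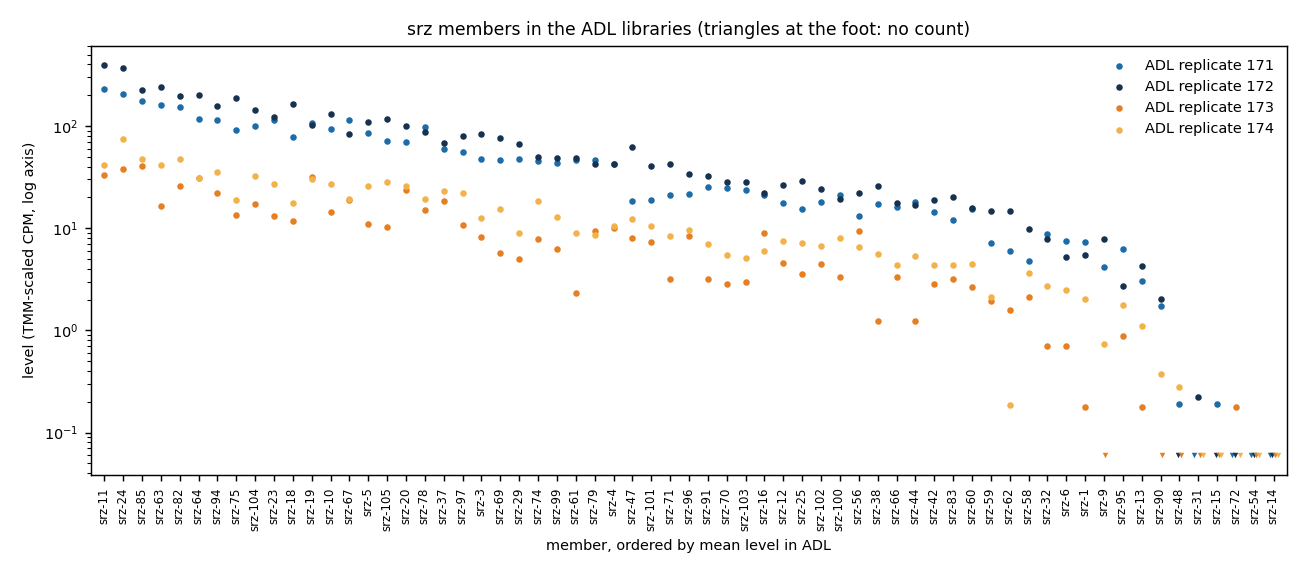
Level of each of the 63 srz members (horizontal, ordered by mean) in the 4 ADL libraries (points, TMM-scaled CPM, log axis), with triangles at the foot for libraries without a count. ADLr171 and ADLr172 run above ADLr173 and ADLr174 for nearly all members, and the order of members is shared.

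The highest member was srz-11 (V:15163082-15164518, plus strand, 4 exons), read at 231.6, 393, 33.2 and 41.5 CPM in the 4 ADL libraries. The highest value in any other library was 1.79 CPM, in AVG, so the groups did not overlap, and the log2 fold change was 11.19 ± 0.30 (SE; edgeR adjusted p = 1.42e-62). Its neighbour in rank, srz-24 (IV:4979771-4981127, minus strand), stood at 205.8, 368, 38 and 75.1 CPM, with a log2 fold change of 9.81 ± 0.28 (SE; edgeR adjusted p = 6.91e-70). Its lowest ADL library came level with AIY, a class where the gene also had a clear level, described below. Next by CPM came srz-85 (I:10724161-10726136, minus strand) with 175.1, 227.2, 40.3 and 47.7 CPM. It was the most widely read member of the family, and its log2 fold change in ADL was lower than that of its peers, at 6.99 ± 0.28 (SE; edgeR adjusted p = 5.86e-55).

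Per kilobase of exon, which allows genes of different length to be compared, srz-11 led with 186.7 CPM per kb in ADL, followed by srz-24 with 168.6, srz-63 with 120.5, srz-82 with 112.5, srz-64 with 92 and srz-85 with 83.7. The median member stood at 17.2 CPM per kb.

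The pair srz-63 and srz-64 lies at II:1278650-1293257, the first on the plus and the second on the minus strand. The former was read at 160.6, 238.2, 16.4 and 41.5 CPM in the ADL libraries and the latter at 116.1, 201.3, 30.8 and 30.7 CPM. Neither passed 2.69 CPM in a library of another class, and both were clear of all other classes. The highest value outside ADL belonged to srz-64 in the interneuron AVH, with a class mean of 1.71 CPM. Also on chromosome II, and alone, are srz-67 with 113.4, 82.7, 18.7 and 19.5 CPM and srz-5 with 84.5, 109.1, 11 and 25.7 CPM. The median in ADL was 60.5 CPM per kb for the 5 members on chromosome II, 34.6 for the 3 on chromosome I, 26.2 for the 27 on chromosome IV, 14.4 for the 26 on chromosome V and 7.88 for the pair on chromosome III. These medians were not tested against each other.

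The largest group holds 7 members within IV:3475646-3506115, on both strands. Going along the chromosome, srz-69 was read at 46.4, 77.1, 5.66 and 15.6 CPM in ADL, then came srz-70 with 24.7, 28.4, 2.83 and 5.47 CPM and srz-37 with 59.97, 68.7, 18.6 and 22.9 CPM. The level changed from gene to gene: srz-69 averaged 40.1 CPM per kb and srz-70 beside it 17.2 CPM per kb. Further on, srz-82 reached 153.3, 195.8, 25.8 and 47.5 CPM, the highest of the group also per kilobase, srz-78 97.5, 86.8, 15 and 19.2 CPM, srz-79 46.2, 42.4, 9.37 and 8.62 CPM and srz-83 12.1, 20.3, 3.18 and 4.36 CPM. All 7 were called higher in ADL, with means from 10.6 to 112.5 CPM per kb. Outside this group, on the lower-coordinate side, srz-23 was read at 114.2, 123.7, 13.3 and 27 CPM, while its group partners srz-60 and srz-32 had means of 13.4 and 5.00 CPM per kb, beside 69.2 for srz-23.

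A second large group holds 6 members, all on the plus strand, within IV:16321166-16336503. In it srz-104 was read at 100.6, 143.8, 17.1 and 32.4 CPM, srz-105 at 71.8, 116.1, 10.3 and 28.2 CPM and srz-74 at 45.8, 49.8, 7.78 and 18.5 CPM in ADL. The other members, srz-61, srz-71 and srz-38, had lower means, 26.2, 20.9 and 13.7 CPM per kb beside 78.5 for srz-104. All 6 were highest in ADL. The annotated exons of srz-104 and srz-105 share 85 bases on one strand, so reads there cannot be given to one of them with certainty. Not far off, srz-75 was read at 90.8, 189.1, 13.4 and 19 CPM. Its annotated exons sum to 3396 bases for a protein of 319 residues, and take in 812 bases of one pseudogene and 945 bases of another, both without a count in any class, so its level per kilobase, 23 CPM, may be set by the annotation.

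Its neighbour srz-72, in a group that spans 13715 bases, had a mean of 0.0472 CPM per kb in ADL. Nearness to a highly read member thus did not go with a high level in every case. Another example is the group of srz-42, srz-59 and srz-31 within IV:14129391-14140294, whose ADL means were 10.2, 4.99 and 0.0578 CPM per kb. The group srz-62, srz-20 and srz-19 at IV:3900504-3921613 was uneven as well. There srz-19 was read at 107.3, 101.9, 31.6 and 30.1 CPM and srz-20 at 70.1, 98.9, 23.5 and 26 CPM, which is 67.4 and 46.2 CPM per kb, while srz-62 averaged 5.77 CPM per kb. No count was found for srz-54 in ADL, although srz-95 in the same group had a mean of 2.97 CPM per kb.

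The remaining members with the highest levels stand alone or in pairs, most of them on chromosome V. Those above 60 CPM on average were srz-94 with 114.8, 155.5, 22.3 and 35.8 CPM, srz-18 with 77.4, 164.7, 11.8 and 17.8 CPM and srz-10 with 93.1, 131.8, 14.3 and 27.2 CPM. In each of these the ADL libraries stayed clear of all others. Lower down were srz-97 with 55.4, 79.6, 10.8 and 22 CPM, srz-3 on chromosome I with 47.5, 83.8, 8.13 and 12.5 CPM and srz-29 on chromosome IV with 47.9, 67.4, 4.95 and 8.99 CPM. Of these, srz-97 alone had libraries elsewhere that reached its ADL values. Last of the 25 members given with full values was srz-99 with 43.1, 48.2, 6.19 and 12.9 CPM in ADL and at most 1.40 CPM in any other library.

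Overlap with other genes limits some values, since the handling of strand and of reads shared by genes is not given in the sources used here. Of the 63 members, 14 share exon bases with another annotated gene, in part with piRNA genes of 21 bases only. All 1015 exon bases of srz-14 lie inside the exons of the chemoreceptor gene srh-277 on the same strand, and srz-14 had no count in any library, so its 0 says nothing about its level. Next to it, srz-13 shares 272 bases with srh-277, and both were low in ADL, at 2.16 and 2.39 CPM. Of srz-29, 309 bases lie opposite the glucuronosyltransferase gene ugt-22, which stood at 8.16 CPM in ADL and was highest in VD motor neurons at 29.7 CPM. The share of srz-79 that lies opposite C09G12.17 is 43 bases. Members that are near copies of each other may also have exchanged reads, which was not tested.

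**Figure D3:**
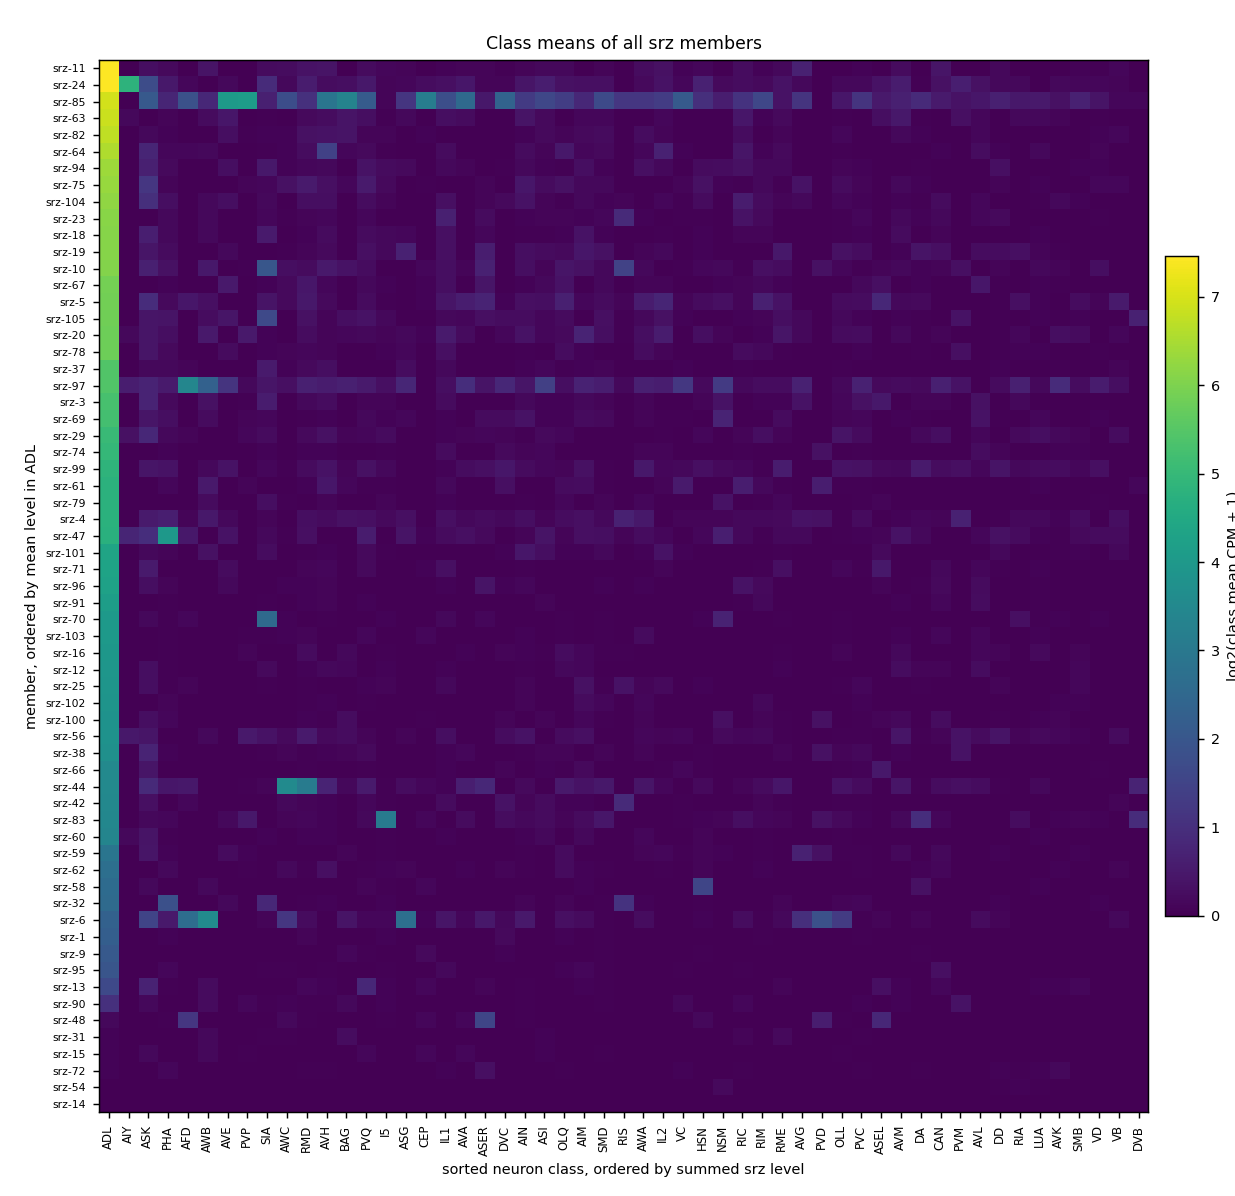
Class means of the 63 members (vertical, ordered by mean in ADL) in the 53 classes (horizontal, ordered by summed srz level), as log2(CPM + 1) by colour. The ADL column is filled from top to near the foot, and a few members show a second class, such as srz-24 in AIY and srz-47 in PHA.

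ADL was the class with the highest mean for 55 of the 63 members. The others were srz-44 (highest in AWC), srz-6 and srz-15 (AWB), srz-48 and srz-72 (ASER), srz-31 (BAG) and srz-54 (NSM), and srz-14 with no count. Of these, srz-44, srz-6 and srz-48 had a class mean above 1.5 CPM. At that level or more, 14 members were found in at least 1 class besides ADL, in 40 combinations of member and class. The members described next were chosen for such levels after their values were seen.

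In AWC, an olfactory neuron pair, srz-44 (V:15637416-15638953) was read at 12.8, 16.5, 3.09 and 10.9 CPM, a mean of 10.8 ± 5.65 CPM (SD, n = 4). In ADL it was read at 18, 16.9, 1.24 and 5.29 CPM, a mean of 10.4 ± 8.37 CPM (SD, n = 4), so the classes overlapped. In the head motor neuron RMD it had a mean of 7.67 ± 3.59 CPM (SD, n = 5), with 3.52 CPM in the lowest library. Both AWC and RMD were called against the mean of the other classes and against all other libraries as one group (edgeR adjusted p = 4.57e-05 and 0.00412 in the latter). ADL, AWC and RMD could not be separated for this gene within their spread. The ADL markers sre-1 and srh-220 summed to 0.127 CPM on average in AWC and 0.469 CPM in RMD.

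The phasmid neuron PHA, a ciliated neuron of the tail, carried srz-47 (V:17190831-17192338) at 6.21, 22.5, 18.1 and 11.9 CPM, a mean of 14.7 ± 7.13 CPM (SD, n = 4). In ADL it stood at 18.4, 62.9, 7.96 and 12.2 CPM, a mean of 25.4 ± 25.4 CPM (SD, n = 4), and the classes overlapped. All other classes had means of at most 0.957 CPM. Called in PHA as well was srz-32, at 1.24, 2.90, 4.66 and 1.40 CPM, a mean of 2.55 ± 1.59 CPM (SD, n = 4), beside 5.02 ± 3.94 CPM (SD, n = 4) in ADL. Both calls held against all other libraries as one group (edgeR adjusted p = 4.82e-05 for srz-47 and 0.000718 for srz-32). The ADL markers were at 0.507 CPM on average in PHA. The chemoreceptor gene str-199, 331 bases from srz-47 on the same strand, stood at 7.06 CPM in PHA and 10.9 CPM in ADL. The gene grd-13, 433 bases from srz-32 on the same strand, stood at 18.2 CPM in PHA. The part of these neighbours in the PHA values was not tested.

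In AWB, an olfactory neuron pair known for repulsion, srz-6 (II:12492236-12493627) was read at 17.9, 0, 5.82, 5.11 and 26.7 CPM, a mean of 11.1 ± 10.9 CPM (SD, n = 5). The library with no count allows up to 1.74 CPM. This member was read in several classes, with 5.62 ± 3.57 CPM in ASG (SD, n = 4), 5.38 ± 3.04 CPM in AFD (SD, n = 5) and 3.97 ± 2.97 CPM in ADL (SD, n = 4). The libraries of all these classes overlapped. Calls in AWB, ASG and AFD held against all other libraries as one group (edgeR adjusted p = 2.32e-06, 0.0406 and 0.0093). In ADL this member's call did not. It was called against the mean of the other classes also in ASK at 1.87 ± 1.59 CPM (SD, n = 4) and in PVD, a class without a cilium in the list used here, at 2.58 ± 2.14 CPM (SD, n = 2), and neither call held against all other libraries as one group (edgeR adjusted p = 0.468 and 0.827). The gene T21B4.15 ends 420 bases upstream of srz-6 on the same strand and was highest in ASK, at 143.8 CPM. It stood at 130.7 CPM in ASG, 55.3 CPM in AFD, 37.9 CPM in PVD and 14.6 CPM in AWB. The collagen gene col-85 lies 75 bases away on the other side and on the opposite strand. Its levels were 95.9 CPM in AWB, 1.73 CPM in ASG, 5.80 CPM in AFD, 20.02 CPM in PVD and 10.4 CPM in ASK. The part of these neighbours in the srz-6 values was not tested.

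The pharyngeal neuron I5 carried srz-83 (IV:3504444-3506115) at 6.88, 15.1, 4.92 and 2.55 CPM, a mean of 7.37 ± 5.48 CPM (SD, n = 4), beside 9.97 ± 7.92 CPM (SD, n = 4) in ADL. The classes overlapped, and the call in I5 held against all other libraries as one group (edgeR adjusted p = 1.47e-05). I5 bears no cilium in the list used here. The homeobox gene ceh-53 ends 528 bases upstream on the same strand, was highest in I5 and stood at 52.6 CPM there and 0.175 CPM in ADL. On the other side ced-10, close by on the opposite strand, stood at 33.2 CPM in I5. The part of these neighbours in the srz-83 value was not tested.

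AIY, a cholinergic interneuron without a cilium, carried srz-24 at 24.9, 17.3 and 40.3 CPM, a mean of 27.5 ± 11.7 CPM (SD, n = 3). It made up 92.5% of the summed srz level of that class. The call against the mean of the other classes had an adjusted p of 4.06e-30 (edgeR), but against all other libraries as one group the edgeR adjusted p was 0.471. That group includes the ADL libraries, where srz-24 had a mean of 171.8 CPM. All AIY libraries lay above every library of any class but ADL. The genes on either side of srz-24, E03H12.27 and E03H12.4, had no count in AIY, and the ADL markers averaged 0.257 CPM there.

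In AFD, srz-97 (V:14463847-14468246) was read at 7.06, 10.1, 7.32, 9.82 and 14.2 CPM, a mean of 9.71 ± 2.89 CPM (SD, n = 5), beside 41.9 ± 31.4 CPM (SD, n = 4) in ADL. The call held against all other libraries as one group (edgeR adjusted p = 0.0106). In AWB its mean was 3.94 ± 3.12 CPM (SD, n = 5). The exons of srz-97 share 235 bases on the same strand with F08H9.4, which was itself highest in AFD at 45.2 CPM and stood at 5.21 CPM in ADL. How far those shared bases set the AFD value was not tested.

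The most widely read member, srz-85, had 14, 14.7 and 18.6 CPM in the command interneuron AVE and 25.9, 25, 8.74 and 6.15 CPM in the interneuron PVP. Their means were 15.8 ± 2.49 CPM (SD, n = 3) and 16.4 ± 10.4 CPM (SD, n = 4). It was also read in the gas-sensing neuron BAG at 9.05 ± 3.95 CPM (SD, n = 4) and in the dopaminergic neuron CEP at 7.96 ± 3.40 CPM (SD, n = 4). Each of these was called against the mean of the other classes. None was called against all other libraries as one group, ADL included (edgeR adjusted p = 0.562 for AVE and 0.219 for PVP). Its lowest ADL library, at 40.3 CPM, lay above all of them. Its exons share 49 bases with B0205.14 on the opposite strand, a gene at 67.6 CPM in BAG and 64.3 CPM in ADL.

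Lower levels were seen for srz-58 in the egg-laying motor neuron HSN, at 1.002, 2.07 and 2.69 CPM, beside 5.11 CPM in ADL. That call held against all other libraries as one group (edgeR adjusted p = 0.0062). A pseudogene 80 bases from srz-58, on the opposite strand, stood at 1.21 CPM in HSN and 0.362 CPM in ADL. In the taste neuron ASER, srz-48 was read at 2.07, 3.61, 1.25 and 0.753 CPM, beside 0.117 CPM in ADL, but it had too few counts to be tested. The gene str-200, 363 bases from srz-48 on the same strand, stood at 2.69 CPM in ASER and 0.541 CPM in ADL. The part of these neighbours in the values of srz-58 and srz-48 was not tested. In the motor neuron SIA, srz-70, srz-10 and srz-105 rested on 1 or 2 libraries. Of the 4 SIA libraries, SIAr242 held srz-70 at 18.7 CPM and srz-10 at 11.2 CPM, and without it their means in SIA were 0.414 and 0.298 CPM. The call of srz-70 in SIA (edgeR adjusted p = 0.015 against all other libraries as one group) thus rests on that library.

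**Figure D4:**
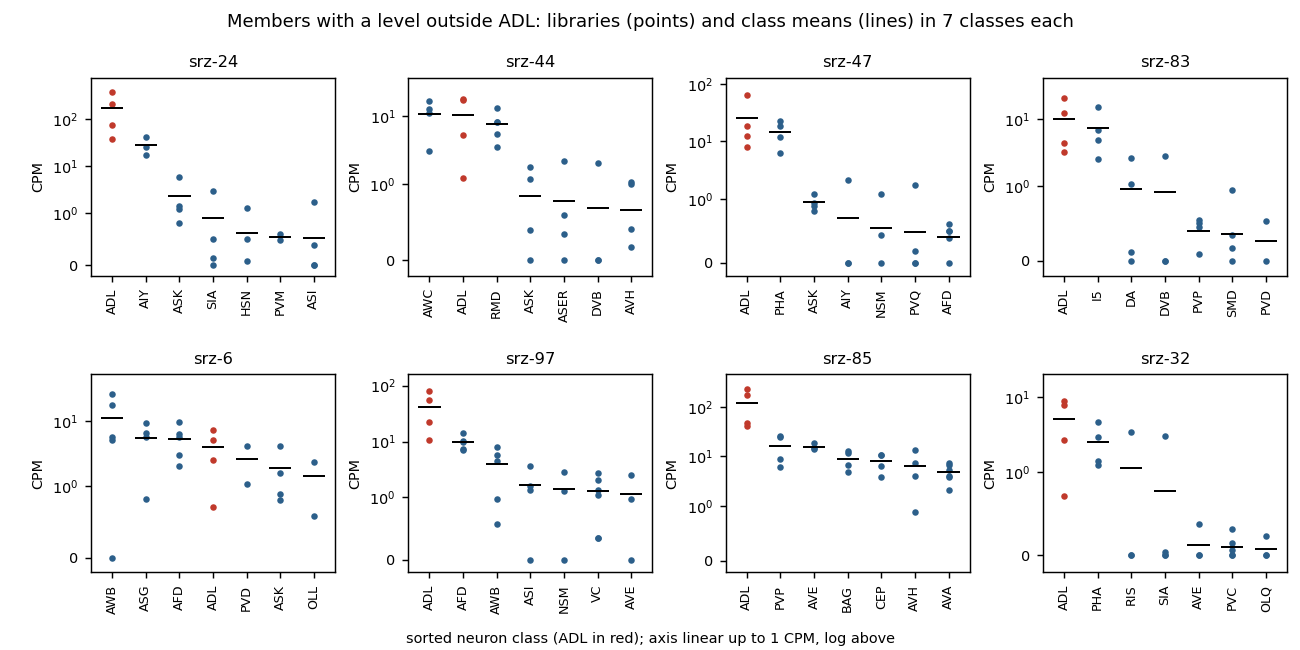
Levels of 8 members in 7 classes each (points are libraries, lines class means, ADL in red, CPM on an axis that is linear up to 1 and logarithmic above). For srz-24, srz-44, srz-47, srz-83, srz-6, srz-97 and srz-32 another class overlaps ADL, while for srz-85 every ADL library lies above the others.

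Outside ADL, the test against the mean of the other classes called 331 of 3276 further combinations of member and class, 10.1%. Of the 2912 combinations that were tested this was 11.4%, which is near the background of 11.3% over all genes tested. Of these, 291 were at class means below 1 CPM, and the median was 0.264 CPM. ASK had 30 members called, beside a background of 18.9%, and the interneuron PVQ 27, beside 17.3%. Which classes had the most calls depended on the test. In limma-voom ASK had 17 and PVQ 0, while AIY and AWB had 35 each. In edgeR AIY had 2 and AWB 5, beside backgrounds of 5.03% and 12.1%. In AIY 1 member exceeded 3 counts in most libraries, and in AWB 2. The share of all genes called in limma-voom is not given for these classes, so these counts are not read as levels. Over all 53 classes 387 of 3339 combinations were called higher, 11.6%, beside a background of 11.4%, and none lower, beside 3.05%. In neither ASK nor PVQ did any member exceed 3 counts in most libraries. Against all other libraries as one group, ADL included, 11 combinations outside ADL were called. That is 0.34% of the 3276 and 0.38% of the 2912 tested, beside a background of 1.97%. None of the 11 was below 1.5 CPM, and none was in ASK or PVQ. In ASK the summed srz level was 1.12% of that in ADL, and the ADL markers sre-1 and srh-220 stood at 1.15% of their ADL level. In PVQ these shares were 0.503% and 0.364%. The part of ADL transcripts in such low levels was not tested.

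Above 3 counts in most libraries of a class, 57 members were found in ADL and 58 in at least 1 class. The next classes by this count were RMD with 6 members and HSN with 5. This count follows depth, because 3 counts lie at a lower CPM in a deeper library. The summed srz level was 6.49 CPM in HSN, while AIY, at 29.8 CPM, had 1 member above the limit. The share of all genes above the limit is not given here.

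Class sums were also compared between the 17 ciliated classes and the 36 others. Most members had too few counts outside ADL to be tested there: 2 of 63 were, and both were called higher in ciliated classes, beside a background of 11.5% of genes. None was lower, where 4.8% of genes were. These were srz-97, with a log2 fold change of 2.91 ± 0.49 (SE; edgeR adjusted p = 4.64e-06), and srz-85, with 2.02 ± 0.57 (SE; edgeR adjusted p = 0.00856). Without ADL the value of srz-97 was 1.64 (edgeR adjusted p = 0.0040) and that of srz-85 was 0.37 (edgeR adjusted p = 0.725), so the latter call rested on ADL. The background without ADL was 11%. In limma neither was called, and in DESeq2 srz-97 was called and srz-85 was not.

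Among 19 chemoreceptor families listed for comparison, srz had the largest share of its summed class means in ADL, 82.1%, followed by srh with 58.7%, srxa with 51.1%, srv with 49% and sri with 48%. Their summed levels in ADL were 2213 CPM for srz, 5448 ± 4189 CPM (SD, n = 4) for srh and 1827 ± 1268 CPM (SD, n = 4) for sri. Of the srz members with a mean of at least 5 CPM in some class, 50 of 52, or 96.2%, had ADL as their highest class. This was so for 80.9% of sri, 70.5% of sre and 66.9% of srh members. A member could reach 5 CPM through ADL alone, so these shares are in part set by that limit. Without the limit, ADL was the highest class for 55 of the 63 srz members. All 4 families share the ADL libraries, and the differences between families were not tested.

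**Figure D5:**
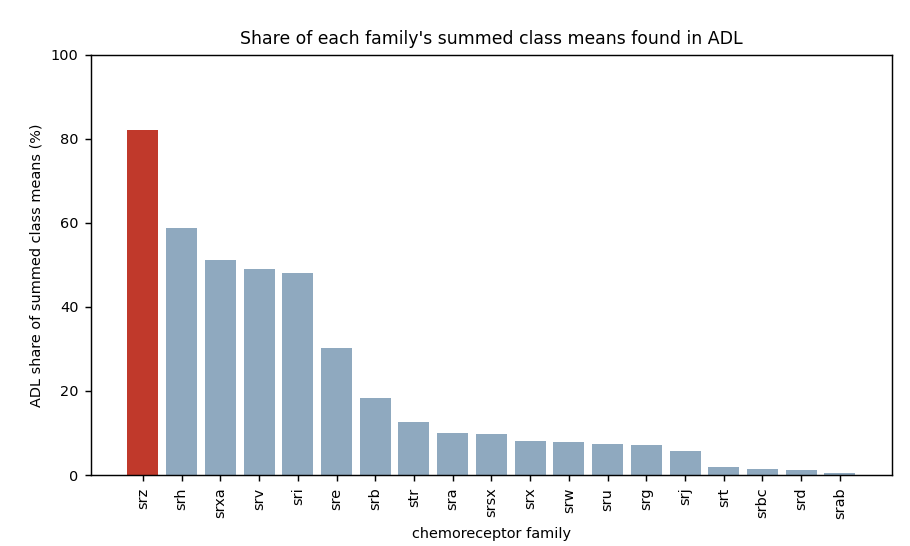
Share of each family's summed class means that lies in ADL (vertical, percent), for 19 chemoreceptor families, with srz in red. The srz bar stands at 82.1%, and the next, srh, at 58.7%.

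Within 10 kb of a member lie 43 chemoreceptor genes of other listed families, of which 26 had too few counts to be tested. Of the 17 tested, 16 were called higher in ADL, beside a background of 19.2% of all genes tested. A gene could pass the count filter through the ADL libraries alone. Among the tested protein-coding neighbours of no listed family, 32% were called higher in ADL. The median level in ADL was 0.499 CPM over these 43 genes and 0.792 CPM over the protein-coding neighbours of no listed family.

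Genes that act with chemoreceptors are given by role, beside a background of 19.2% of all genes tested called higher in ADL and 3.27% called lower. For delivery of receptors to the cilium, odr-4 and odr-8 were both highest in ADL, at 303 and 420.0 CPM, and with the adaptin gene unc-101 3 of 3 were called higher. Of 11 G protein alpha subunits of sensory neurons 10 were called higher, gpa-3 at 357 CPM and gpa-11 at 251.7 CPM among them, and gpa-5 was not (edgeR adjusted p = 0.448). Of the transduction channels, the TRPV genes osm-9 at 490 CPM, ocr-2 at 144.7 CPM and ocr-1 at 13.2 CPM were called higher. The cyclic nucleotide-gated channel genes tax-2 and tax-4 stood at 1.87 and 2.60 CPM and were not called, nor were the guanylyl cyclase genes daf-11 and odr-1 at 1.22 and 0.914 CPM (edgeR adjusted p = 0.436 and 1). Cilium assembly genes were called higher in 8 of 8 cases and receptor regulators, such as the arrestin gene arr-1, in 3 of 4. Many of these genes were also called higher in the ciliated classes, ADL included, against the others. That was so for all 8 cilium assembly genes, 9 of the 11 G protein subunits and all 5 channel genes, beside 11.5% of genes tested. None of the genes on this list was called lower in ADL.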

How the data were processed

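RNA-seq counts of the labelled libraries of 53 sorted classes were used, and 14 further columns of the table were not used here. The authors deposited whole-number counts per gene, not normalized, under annotation release WS289 per the file name. Per the submitters' processing notes, STAR 2.7.7a, UMI-tools 1.1.4 and Subread 2.0.3 with featureCounts were used. Their settings, the genome build, and the handling of strand and of reads that map to several places are not given in the sources used here. Symbols were matched by gene identifier.

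From these counts, TMM factors (0.256 to 2.03) and CPM were computed in edgeR 4.0.16 (R 4.3.3), and one quasi-likelihood model with trended dispersion was fitted over all classes and 20427 genes after filterByExpr. Class contrasts set each class against the other 52, every class weighing the same, and class sums of ciliated classes against the others. Adjusted p-values are Benjamini-Hochberg over all genes tested, with a threshold of 0.05. Alternatives used all other libraries as one group, limma 3.58.1, DESeq2 1.42.0, other scalings and filters, and libraries left out. The model for the ADL contrast was run on simulated data with the same spread for every gene and smaller fold changes than those of the called members. That run therefore does not bear on these calls. No 2 of 317 library pairs within classes held identical counts, and the closest pair differed with a chi-square of 5.11 per degree of freedom, and each library was counted as 1 sample.

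Members with full values are those with a mean of at least 5 CPM in their highest class, a count in each of its libraries and a call there, at most 25 by mean (51 qualified). The highest class was chosen from the same values that the call tests. The members, gene lists and tests were chosen with earlier results of these data known. The 25 libraries of 7 classes whose description does not repeat the kit named in the protocol of every library share no class with the rest, so that label and class cannot be told apart.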

Additional observations from a re-analysis of the deposited data

Results flagged for a closer look

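In groups of 4 or more libraries, 4 of 68 member and class groups had 1 library far from the others, and chance flags about 1 in 20 groups. In SIA, srz-70 stood at 18.7 CPM in SIAr242, and the other 3 libraries held 0, 0.297 and 0.945 CPM. The same library held srz-10 at 11.2 CPM, where the others had 0, 0.0425 and 0.851 CPM. In ASK, srz-24 stood at 5.79 CPM in ASKr49, beside 0.809 to 1.40 CPM in the others. In AFD, srz-85 stood at 9.42 CPM in AFDr38, beside 0 to 2.11 CPM in the others.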

How the results depend on the processing

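The 56 members called higher in ADL were 53 to 58 under 17 alternatives, beside 7.30% to 19.7% of genes tested in the same settings. With ADLr171, ADLr172, ADLr173 or ADLr174 left out they were 53, 54, 56 and 55, beside 15.4%, 14.6%, 19% and 17.3% of genes tested. This was a set of alternatives added after the data were seen. The F-test over classes called 55 to 58 members, beside 95.5% of genes tested in the main fit. Between 52 and 59 members exceeded the count limits tried, for which no share of all genes is given. All 25 fully described members kept their direction and their call under each of 13 alternatives. The calls of member and class pairs did depend on the test. Of the 3339 pairs, 11.6% were higher against the mean of the other classes, beside 11.4% over all genes tested. In that test 0% were lower, beside 3.05%, and no pair was lower at an unadjusted p under 0.05 either. Against all other libraries as one group 1.98% were higher and 0.12% lower. Outside ADL 0.34% were higher in that test, beside 1.97% over all genes tested. In limma-voom 5.3% were higher and 7.94% lower. The share of all genes is not given for limma-voom, nor for lower calls against 1 group, so those shares are not read as a result about the family. The cause was not tested. Other alternatives for these pairs, run in full for ADL and AWC only, were otherwise not run. In the ciliated comparison 2 members were called, 0 in limma and 1 in DESeq2. With 1 library of each class left out 1 to 2 were called, and without ADL 1. Without the count filter 55 of the 62 members tested were called, beside 4460 of 38360 genes called higher. ADL was among the ciliated classes in that setting, which was not run without ADL. The median log2 fold change of all genes in the ADL contrast was 0.18, and ran from -0.20 to 0.25 over the alternatives, small beside the 5.01 or more of the called members. Depth limits levels below 0.278 to 0.676 CPM in ADL and below 0.643 CPM in the median library. No paired analysis was possible because the classes share no replicate numbers.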
